A study of Mus musculus with 27 samples.

Results

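The genes described here are 34 genes for lysosomal enzymes and lysosomal membrane proteins. They were named as a set and read by symbol from the deposited count files, among 24000 gene rows in each of 27 libraries. By role they are 10 proteases, 8 glycosidases, 3 enzymes of lipids and DNA, 3 soluble lumenal proteins and 10 membrane proteins. After a filter on low counts, 32 of the 34 were tested, among 12073 genes in all. The proteases Ctsl, with 6 reads over 6 libraries, and Ctsh, with 20 reads over 13 libraries, did not pass it.

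PolyA RNA was sequenced from Ba/F3, a mouse line labelled pro-B that grows on interleukin 3 (IL3). The 7 groups are named here by what the cells carried. Wild-type cells without a hairpin were kept without IL3 for 6 h (deprived, 5 libraries), or received 10 ng/mL IL3 for 30 min after those 6 h (stimulated, 5 libraries). The other 5 groups were all stimulated in that way, after lentiviral transduction with a short hairpin and at least 1 week of puromycin selection. Their hairpins were a no-target control (5 libraries) and hairpins against STAT5A, STAT5B, HDAC3 and LSD1 (3 libraries each). STAT5A and STAT5B are the transcription factors that IL3 signalling activates, HDAC3 is a histone deacetylase and LSD1 (gene Kdm1a) a histone demethylase. How many hairpins or transduced populations stand behind a group is not given in the sources used here, and replicates are called biological in the labels.

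Lysosomes are acidic compartments in which hydrolases break down proteins, sugar chains, lipids and nucleic acids. Their membrane proteins shield the membrane, pump protons and carry the products back to the cytosol. Many of these genes carry E-box type sites, called CLEAR elements, which are bound by TFEB, TFE3 and MITF, factors that mTORC1 holds in the cytosol when nutrients and growth factors are plentiful. Levels below are CPM, a gene's reads relative to all reads counted in genes of that library, with library sizes adjusted by edgeR's TMM factors. A gene is called where edgeR's quasi-likelihood test gave a Benjamini-Hochberg adjusted p under 0.05 over all 12073 genes, and rose and fell are used only of called genes.

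Depth was 5.48 to 33.8 M counted reads. The hairpins left 35.9% of Stat5a, 28.5% of Stat5b, 53.0% of Kdm1a and 44.3% of Hdac3 of the no-target mean. In 5 libraries (no-target replicates 1 and 3, HDAC3 replicates 1 and 2, LSD1 replicate 1) over 13% of reads lay outside genes, 14.03 to 24.9% against 8.70 to 11.99% in the others. These 5 also had the lowest summed levels of the 34 genes, at 3376 to 4337 CPM against 5001 to 9026 CPM. None of them is a STAT5 knockdown, and 2 are among the 5 no-target controls of every knockdown comparison. Replicate 3 of the STAT5B knockdown stood apart in the other direction: it was the highest of all 27 libraries for 15 of the 32 tested members, against 8.50% of all genes. Beside many counts and medians of the members stands the value with such libraries left out. Where none is given, stability is not implied. In bulk RNA, a shift in the mix of cell states and a shift per cell cannot be told apart.

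**Figure D1:**
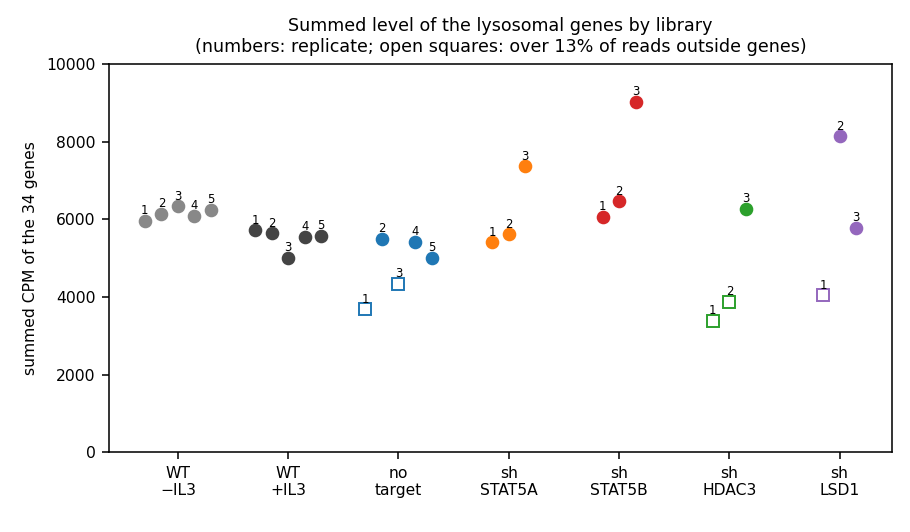
Summed CPM of the 34 genes (vertical axis) in each of the 27 libraries by group (horizontal axis), numbered by replicate; open squares mark the 5 libraries with over 13% of reads outside genes. These 5 lie at 3376 to 4337 CPM, and STAT5B knockdown replicate 3 is the highest, at 9026 CPM.

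Per kb of merged exon length, Psap led in the no-target cells with a mean level of 128 CPM per kb. It encodes the precursor of the saposins, which present lipids to hydrolases. Lamp1, a major glycoprotein of the lysosomal membrane, followed at 127 CPM per kb, then the aspartic protease Ctsd at 116 CPM per kb, Laptm5 at 103 CPM per kb and the tetraspanin Cd63 at 94.2 CPM per kb. At the other end were the transporter Slc38a7 at 2.56 CPM per kb and the protease Ctss at 0.259 CPM per kb. The 4 genes that the STAT5B comparison called all lay in the lower part of this order, between ranks 25 and 31 of 34. Across the 27 libraries Man2b1, an alpha-mannosidase, varied least (134 to 209 CPM, 1.55-fold). Lgmn, an asparaginyl endopeptidase that processes cathepsins, varied most among tested members with reads in every library (31.2 to 333 CPM, 10.7-fold).

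The promoters of the 4 genes called in the STAT5B knockdown are shown first, because the members' best known regulatory site is a short DNA word that can be read in them. Sequences are RefSeq's, build GRCm38.p6, from 250 bases before to 50 bases after the gene start, on the gene's strand. Capitals mark TCACGTGA or, where only its core is present, CACGTG. The E-box CACGTG lies inside TCACGTGA, so each match of the longer word is also one of the shorter, and both words read the same on either strand. Slc38a7 lies at chr8:95853442-95853741 (minus strand), Dpp7 at chr2:25356283-25356582 (minus strand), Gla at chrX:134600956-134601255 (minus strand) and Dnase2a at chr8:84908505-84908804 (plus strand).
Slc38a7: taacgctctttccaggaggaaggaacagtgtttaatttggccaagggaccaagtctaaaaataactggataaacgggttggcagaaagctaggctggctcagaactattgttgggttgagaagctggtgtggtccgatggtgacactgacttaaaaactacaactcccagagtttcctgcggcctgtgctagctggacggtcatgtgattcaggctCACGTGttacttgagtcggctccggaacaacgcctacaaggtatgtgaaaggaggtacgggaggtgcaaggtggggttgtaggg
Dpp7: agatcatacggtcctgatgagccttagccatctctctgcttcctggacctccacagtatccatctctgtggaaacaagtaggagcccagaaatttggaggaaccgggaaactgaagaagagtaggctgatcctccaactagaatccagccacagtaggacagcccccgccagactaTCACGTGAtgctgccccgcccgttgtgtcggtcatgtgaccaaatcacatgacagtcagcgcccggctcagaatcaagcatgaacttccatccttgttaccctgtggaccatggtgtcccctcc
Gla: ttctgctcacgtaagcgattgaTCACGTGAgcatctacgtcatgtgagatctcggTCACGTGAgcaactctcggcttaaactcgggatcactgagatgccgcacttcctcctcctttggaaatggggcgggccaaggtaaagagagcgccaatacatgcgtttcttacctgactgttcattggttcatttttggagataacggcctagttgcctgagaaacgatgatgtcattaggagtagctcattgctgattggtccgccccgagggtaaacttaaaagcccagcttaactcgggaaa
Dnase2a: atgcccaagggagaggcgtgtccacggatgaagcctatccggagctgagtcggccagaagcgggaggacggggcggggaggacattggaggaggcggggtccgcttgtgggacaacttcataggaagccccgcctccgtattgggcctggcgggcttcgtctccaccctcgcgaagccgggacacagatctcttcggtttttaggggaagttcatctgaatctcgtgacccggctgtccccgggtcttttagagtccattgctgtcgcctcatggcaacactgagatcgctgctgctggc

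In the Dpp7 promoter TCACGTGA begins 74 bases before the gene start. Gla holds it at 2 places, 228 and 195 bases before the start. Slc38a7 has the core alone, 34 bases before the start, and in Dnase2a neither word is in the window. For 30 of the 34 members the table held a promoter, 33 promoters in all; Ctsb, Ctsh, Npc1 and Asah1 were not matched. TCACGTGA was in 5 of the 33 (15.2%), against 0.974% of all 32851 promoters, and CACGTG in 12 (36.4%), against 7.15%. The further holders of TCACGTGA were Ctsa, Ctsd and Mcoln1, and Lamp1 held CACGTG at 4 places. The word TTCNNNGAA, the usual STAT5 consensus, was in 0 of the 33 windows and in 8.3% of all. A match is a string of letters in this window and no measure of binding.

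**Figure D2:**
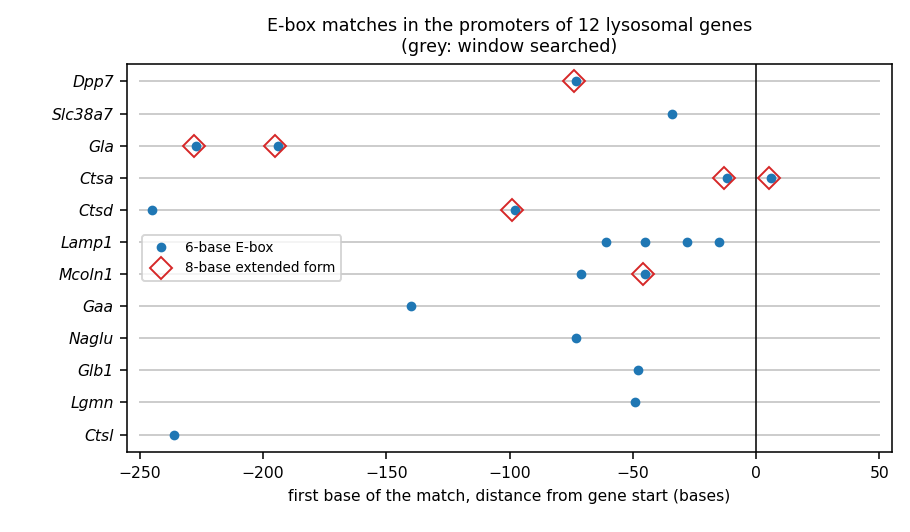
Positions of the first base of each E-box match relative to the gene start (horizontal axis, bases) in the promoters of the 12 lysosomal genes that hold one (rows, ordered by log2 fold change in the STAT5B knockdown, with the untested Ctsl last); red diamonds are the extended 8-base form, blue points the 6-base core. Ctsa, Ctsd, Dpp7, Gla and Mcoln1 hold the extended form, and Lamp1 holds 4 cores.

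In the STAT5B knockdown 4 lysosomal genes rose against the no-target hairpin and none fell: Slc38a7, Dpp7, Dnase2a and Gla, by 2.26- to 2.90-fold. Of all genes, 0.34% were called in this comparison (25 higher and 16 lower). Of the 32 members, 30 had a positive log2 fold change, with a median of 0.61, against 48.8% of all genes and a median of -0.01. With 1 library left out the members' median was 0.43 to 0.77, with 28 to 31 positive. At an unadjusted p under 0.05 stood 20 members and 15.9% of all genes. That Dpp7, Slc38a7 and Dnase2a were called was already known when the set was drawn up, so these counts describe the set and do not test it.

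Slc38a7, which carries glutamine and asparagine out of lysosomes, was at 10.9, 9.83, 9.25, 10.3 and 12.7 CPM in the no-target libraries and at 16.0, 23.4 and 50.4 CPM in the STAT5B knockdown. The groups did not overlap, and replicate 3 was the highest by a wide margin. Its log2 fold change was 1.49 (SE 0.28, edgeR adjusted p 0.0224).

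Dpp7, a dipeptidyl peptidase of lysosomes and related vesicles, was at 21.3, 28.2, 19.4, 24.1 and 27.5 CPM in the no-target libraries and at 32.2, 49.6 and 130 CPM in the knockdown. The 3 knockdown libraries were again all higher, the first by the smallest margin. Its log2 fold change was 1.54 (SE 0.29, edgeR adjusted p 0.0233).

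Dnase2a, the acid DNase that digests engulfed and autophagic DNA, was at 34.2 to 39.5 CPM in the no-target libraries and at 42.9, 76.8 and 166 CPM in the knockdown. The control libraries lay close together (36.5 ± 2.20 CPM, SD, n = 5) and the knockdown libraries far apart (95.2 ± 63.5 CPM, SD, n = 3), without overlap. Its log2 fold change was 1.38 (SE 0.29, edgeR adjusted p 0.0339). Exons of Mast1 overlap Dnase2a on the opposite strand, and the counts are not stated to use strand.

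Gla, alpha-galactosidase A, was at 19.1, 35.8, 35.9, 42.4 and 32.5 CPM in the no-target libraries and at 69.2, 54.7 and 102 CPM in the knockdown. Here replicate 1 was above replicate 2, unlike in the preceding genes. Its log2 fold change was 1.18 (SE 0.26, edgeR adjusted p 0.0453).

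**Figure D3:**
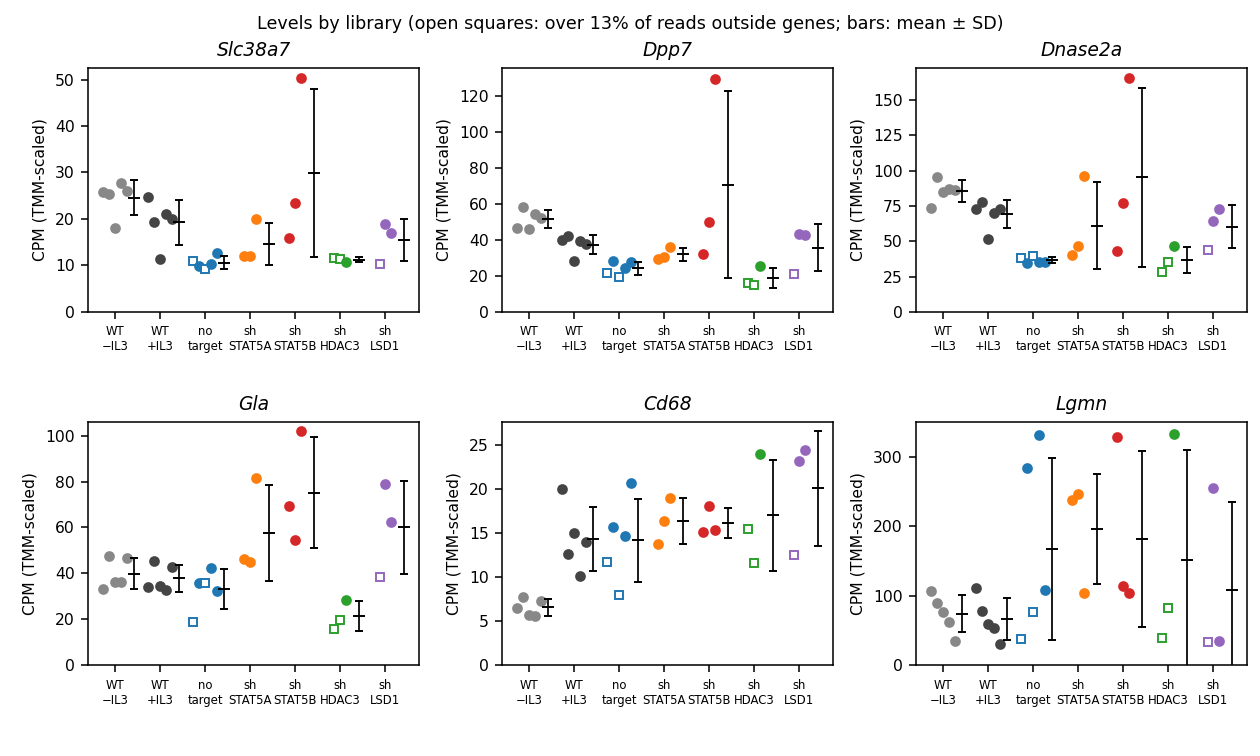
CPM (vertical axes) by library and group for the 4 genes called in the STAT5B knockdown, for Cd68 and for Lgmn; open squares are libraries with over 13% of reads outside genes, bars are mean ± SD, with bars that would pass below 0 ending at the axis. For Slc38a7, Dpp7 and Dnase2a the no-target libraries lie below most stimulated wild-type libraries, and the largest value is STAT5B knockdown replicate 3.

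These calls depended on the libraries and the model. Without STAT5B replicate 3, 0 of the 4 were called, and log2 fold changes were 0.89 for Slc38a7, 0.76 for Dpp7, 0.72 for Dnase2a and 0.90 for Gla. Without STAT5B replicate 1, 8 members were called, adding Ctsa, Mcoln1, Lamp1 and Gaa. Without STAT5B replicate 2, or without no-target replicate 2 or 5, Dpp7 and Slc38a7 alone were called, and without no-target replicate 1, 3 or 4 the count was 0. Leaving out the 5 libraries rich in reads outside genes also gave 0, with log2 fold changes of 1.43, 1.39, 1.43 and 1.02 in the same order of genes. The main fit shares its estimate of spread over all 7 groups. With only the STAT5B and no-target libraries in the fit 0 were called, with edgeR adjusted p of 0.360 to 0.433 for the 4 genes. Calls over all genes moved as well. They numbered 41 of 12073 in the main fit, 171 of 12430 without STAT5B replicate 1 and 5 of 12427 without STAT5B replicate 3. Leaving out STAT5B replicate 2 gave 13, and leaving out a no-target library gave 8 (replicate 4) to 56 (replicate 2). The fit without the 5 libraries gave 11 of 12224, and that with only the compared groups 1 of 11151.

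Against stimulated wild-type cells the 4 genes showed smaller differences and 0 members were called in the STAT5B knockdown (0.191% of all genes were). Slc38a7 was at 11.4 to 24.6 CPM in stimulated wild type, Dpp7 at 28.3 to 41.9 CPM, Dnase2a at 51.9 to 77.6 CPM and Gla at 32.6 to 45.3 CPM. The ranges of wild type and STAT5B knockdown overlapped for the first 3 genes and not for Gla. Log2 fold changes were 0.63, 0.91, 0.46 and 0.99, with edgeR adjusted p of 0.590, 0.283, 0.844 and 0.121. Gla was called against wild type by DESeq2, with a term marking the 5 libraries rich in reads outside genes, and without those 5 libraries. In all, 31 of 32 members were positive here, with a median of 0.40 (0.14 without STAT5B replicate 3). An unadjusted p under 0.05 was found for 10, against 7.38% of all genes, and the libraries of 3 did not overlap (3.96% of all genes, higher).

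Among the proteases only Dpp7 was called, while all 8 tested were positive in the STAT5B knockdown (median 0.80). Ctsa, the carboxypeptidase that also protects neuraminidase and beta-galactosidase, was at 111 to 165 CPM in the no-target libraries and at 190, 235 and 437 CPM in the knockdown. The groups did not overlap, and the difference of 1.02 (SE 0.25) had an edgeR adjusted p of 0.0771, while DESeq2 called it (adjusted p 0.0141). Exons of Neurl2 and Pltp overlap Ctsa on the opposite strand, the same limit as for Dnase2a. Ctsd was at 176 to 335 CPM against 367, 433 and 817 CPM, a log2 fold change of 0.98 (adjusted p 0.156). Lgmn spread as widely within groups as between them, at 37.3, 283, 76.7, 331 and 108 CPM in no-target and at 328, 114 and 103 CPM in the STAT5B knockdown.

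Of the 8 glycosidases Gla alone was called, and 7 were positive, with a median of 0.55. Neu1, the sialidase that Ctsa stabilises, was at 50.8 to 84.8 CPM in no-target and at 80.5, 110 and 187 CPM in the knockdown (log2 fold change 0.86, adjusted p 0.194). The beta-hexosaminidase subunit Hexa differed by 0.84 (adjusted p 0.145), and the acid glucosidase Gaa by 0.60 (0.179). Gusb, beta-glucuronidase, was at -0.01, and of its knockdown libraries, at 190, 131 and 114 CPM, replicate 3 was the lowest. The lumenal proteins Grn, Npc2 and Psap differed by 0.65, 0.61 and 0.24, and the lipid enzymes Asah1 and Lipa by 0.67 and 0.26, none of them called.

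Among the 10 membrane proteins the median difference was 0.30, below that of the proteases. Lamp1 was at 272 to 391 CPM in no-target and at 404, 638 and 894 CPM in the knockdown, which do not overlap (0.92, adjusted p 0.131). Mcoln1, the calcium channel of lysosomes, was at 40.3 to 48.3 CPM against 47.6, 76.8 and 97.8 CPM (0.71, adjusted p 0.114); DESeq2 called it (adjusted p 0.0480). Scarb2, which carries glucocerebrosidase to lysosomes, and the cholesterol transporter Npc1 lay near 0, at -0.08 and 0.00. In 12 of the 32 members the groups did not overlap, all higher in the knockdown, against 2.91% of all genes in that direction.

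**Figure D4:**
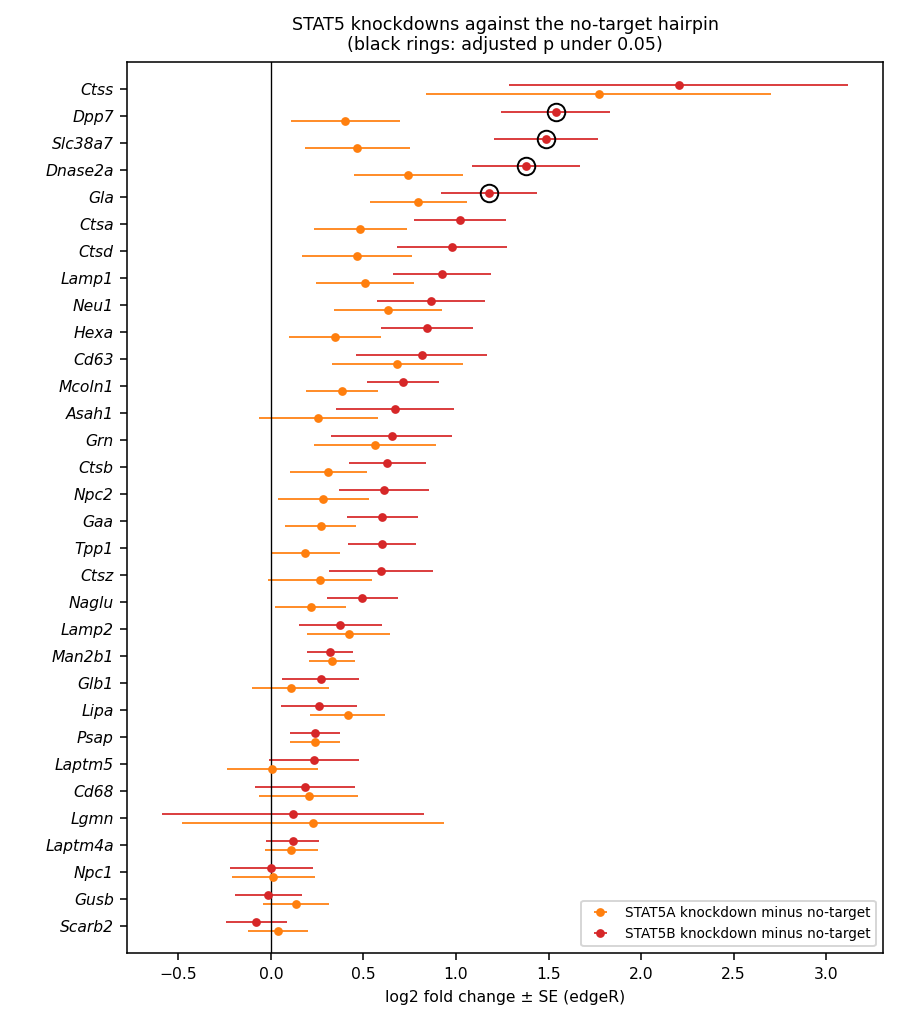
Log2 fold change with its standard error (horizontal axis) of the 32 tested lysosomal genes in the STAT5A (orange) and STAT5B (red) knockdowns against the same 5 no-target libraries, ordered by the STAT5B value; black rings mark adjusted p under 0.05. All 32 orange points and 30 of 32 red points lie above 0, and the 4 rings belong to STAT5B.

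The STAT5A knockdown was compared with the same 5 no-target libraries, so that both STAT5 comparisons share their controls. In it 0 members were called, by edgeR or by DESeq2, and 0.0663% of all genes were called by edgeR (6 higher and 2 lower). All 32 tested members had a positive log2 fold change, from 0.01 to 1.77 with a median of 0.32, while over all genes the median was -0.00. Without the 5 libraries rich in reads outside genes, 26 were positive (median 0.28), and Gusb, Glb1, Lgmn, Laptm4a, Laptm5 and Cd68 lay between -0.29 and -0.001. Without STAT5A replicate 3 the count was also 26, with a median of 0.19. At an unadjusted p under 0.05 stood 4 members (Gla, Man2b1, Dnase2a and Neu1) and 8.42% of all genes. In 9 members the groups did not overlap, all higher, against 2.53% of all genes.

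Gla was at 46.3, 44.9 and 81.6 CPM in the STAT5A knockdown, above every no-target library (0.80, SE 0.26, edgeR adjusted p 0.477). Dnase2a was at 40.2, 46.8 and 96.2 CPM, with replicate 3 far above the others (0.74, SE 0.29, adjusted p 0.566). Man2b1 was at 184, 197 and 188 CPM against 142 to 159 CPM, a small and even difference (0.33, SE 0.12, adjusted p 0.558). Slc38a7 was at 12.02, 11.99 and 19.9 CPM, so that the first 2 libraries lay within the no-target range. Dpp7, at 29.5, 30.3 and 36.0 CPM, stayed narrowly above it.

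Taking the mean of both STAT5 knockdowns against no-target, 0 members were called by edgeR and 5 by DESeq2 (Ctsa, Gla, Dnase2a, Dpp7 and Slc38a7). Of all genes, edgeR called 0.166% and DESeq2 called 215 of 12977. The smallest edgeR adjusted p was that of Gla, 0.0707 at a log2 fold change of 0.99. Of 32 members 31 were positive and 21 had an unadjusted p under 0.05, against 18.4% of all genes. Without STAT5B replicate 1, 3 members were called, among 36 of 12430 genes.

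Both knockdowns were also compared directly. No member was called by edgeR or DESeq2 between STAT5A and STAT5B, where 0.0248% of all genes were called by edgeR, and 2 had an unadjusted p under 0.05. The largest differences were in Dpp7 (-1.13, SE 0.34, adjusted p 0.692) and Slc38a7 (-1.02, SE 0.32, adjusted p 0.783), lower in STAT5A. The STAT5A and STAT5B libraries of both genes overlap, and without STAT5B replicate 3 the differences were -0.36 and -0.43. Tpp1, a tripeptidyl peptidase, was at 210, 193 and 192 CPM in STAT5A and at 212, 222 and 361 CPM in STAT5B, just without overlap (-0.42, adjusted p 1). Over the 32 members the median difference was -0.30; it was -0.06 without STAT5B replicate 3 and -0.17 without STAT5A replicate 1. That 4 genes were called in STAT5B and none in STAT5A is therefore not shown to be a difference between them.

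Against stimulated wild type, the STAT5A knockdown had 0 called members (0.356% of all genes called), 24 positive of 32 and a median of 0.14. Without STAT5A replicate 3, 15 were positive and the median was -0.06. The groups did not overlap, higher, in 4 members and in 5.91% of all genes. The mean of both STAT5 knockdowns against wild type gave 0 called members (0.679% of all genes), 29 positive and a median of 0.23. Its smallest adjusted p was again that of Gla (0.80, SE 0.22, adjusted p 0.111), which DESeq2 called. Ctss differed by 2.02 (adjusted p 0.320) at levels of 0.134 to 0.543 CPM in wild type and 0.360 to 3.75 CPM in the knockdowns, Lgmn by 1.50 (0.374) and Ctsb by 0.38 (0.460). Ctsb, a cysteine protease, was at 261 to 276 CPM in wild type and at 300.1 to 508 CPM in the knockdowns, without overlap. Lgmn was at 31.2 to 111 CPM in wild type and at 103 to 328 CPM in the knockdowns, which overlap.

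**Figure D5:**
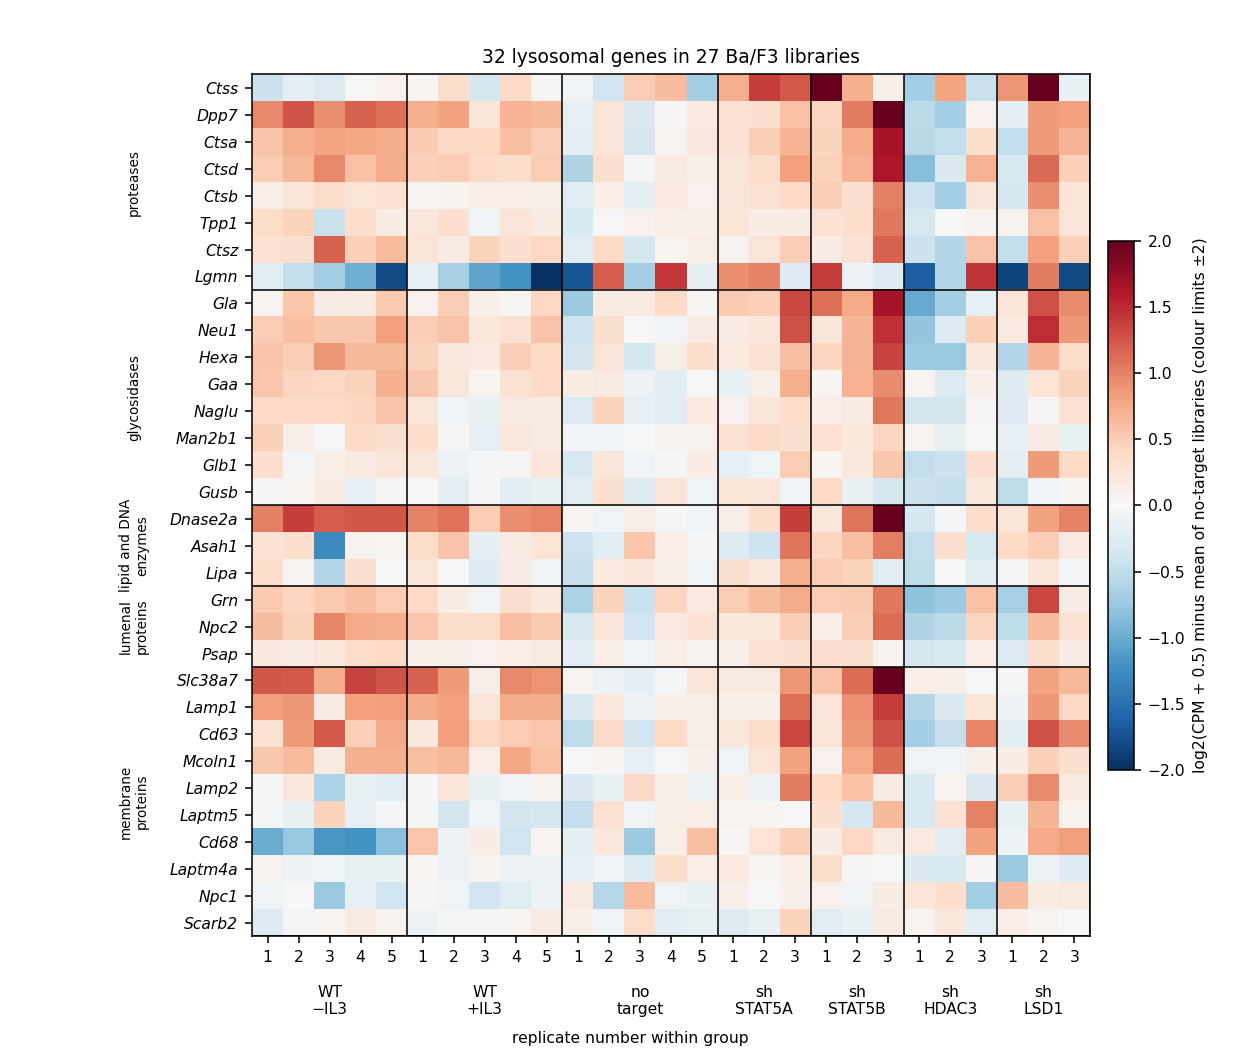
Log2(CPM + 0.5) of the 32 tested lysosomal genes (rows, by role and then by the STAT5B difference) in 27 libraries (columns, by group and replicate), minus the mean of the no-target libraries, in colour from blue (lower) to red (higher) with limits of ±2. STAT5B knockdown replicate 3 is the reddest knockdown column, with a median of 1.04, and HDAC3 knockdown replicates 1 and 2 are the bluest, at -0.43 and -0.29.

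The no-target cells themselves lay below stimulated wild-type cells for 25 of 32 members, with a median of -0.16 against 0.01 over all genes. Of these 5 no-target libraries 2 are rich in reads outside genes. With a term marking the 5 libraries rich in such reads 18 members were lower (median -0.05), and without those 5 libraries 22 (-0.11). Without no-target replicate 1 alone 19 were lower (-0.07), while without no-target replicate 4 the median was -0.25. No member and 0% of all genes were called by edgeR (8 members had an unadjusted p under 0.05, and DESeq2 called 0 members). Dnase2a was at 34.2 to 39.5 CPM in no-target and at 72.7, 77.6, 51.9, 70.3 and 72.6 CPM in wild type, without overlap (-0.92, SE 0.26, adjusted p 0.173). It was called when only these groups entered the fit, which called 26 of 11177 genes. Mcoln1 was at 40.3 to 48.3 CPM against 49.3 to 77.2 CPM (-0.57, adjusted p 0.200), and Lamp1 at 272 to 391 CPM against 399 to 594 CPM (-0.66, adjusted p 0.224). Both were without overlap, whereas Slc38a7, at 9.25 to 12.7 CPM against 11.4 to 24.6 CPM, overlapped (-0.86, adjusted p 0.183). In 7 members all 5 no-target libraries lay below all 5 wild-type libraries, against 3% of all genes. The wild-type cells carry neither a lentivirus nor puromycin selection, so these and the hairpin cannot be told apart.

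In the LSD1 knockdown 0 members were called by edgeR or DESeq2 (0.166% of all genes by edgeR), 28 of 32 were positive and the median was 0.34. Without LSD1 replicate 2 it was 0.13, with 21 positive, and without LSD1 replicate 1 it was 0.55. In 2 members the groups did not overlap, higher, against 1.71% of all genes. Gla was at 38.5, 79.1 and 62.3 CPM (0.86, SE 0.26, adjusted p 0.316) and Neu1 at 78.2, 189 and 124 CPM (0.92, SE 0.29, adjusted p 0.347). The lowest value of both came from replicate 1, which had 24.9% of its reads outside genes. Ctss reached 8.06 CPM in replicate 2 but stood at 0.980 and 0.229 CPM in the others (3.09, SE 0.90, adjusted p 0.258). Laptm4a, a small membrane protein, was lower at 78.7, 122 and 110 CPM against 111 to 168 CPM (-0.37, SE 0.14, adjusted p 0.571). Beside these values Cpa3, a mast cell protease, rose in the LSD1 knockdown (138 against 5.01 CPM, edgeR adjusted p 0.0279, with libraries that overlap), and its part in them was not tested.

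In the HDAC3 knockdown 0 members were called by edgeR or DESeq2 (0.0248% of all genes by edgeR) and 26 of 32 were negative, with a median of -0.15. This direction rested on single libraries: without HDAC3 replicate 1, 17 of 32 were positive (median 0.003), without replicate 2 the median was -0.05 and without replicate 3 it was -0.37. Leaving out the 5 libraries rich in reads outside genes, which keeps 1 HDAC3 library, turned the sign of 16 of the 32. In 0 members did the groups separate downward, against 1.59% of all genes. Gla was at 15.6, 19.9 and 28.5 CPM (-0.63, SE 0.28, adjusted p 0.857), and it was the single member with an unadjusted p under 0.05. Hexa was at 79.1, 78.6 and 155 CPM against 103 to 169 CPM (-0.37, adjusted p 0.870), and Laptm4a at 108, 106 and 134 CPM against 111 to 168 CPM (-0.20, adjusted p 0.870). Laptm5, a lysosomal membrane protein of blood cells, was at 311, 473 and 764 CPM against 274 to 475 CPM (0.40, adjusted p 0.870). For Hexa and Laptm4a the first 2 libraries lay below every control and the third within their range, and for Laptm5 the third alone lay above it. Replicates 1 and 2, with 16.99 and 19.8% of reads outside genes, were the lowest of 27 libraries for 12 and 5 members. Of all genes, they were the lowest for 10.2 and 7.63%. Replicate 3 had 25 of 32 members above the no-target mean, against 50.004% of all genes. The part of the reads outside genes in this direction was not tested.

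Between the LSD1 and HDAC3 knockdowns 1 member was called, Gla, which was 2.81-fold higher in LSD1 (60.0 ± 20.4 against 21.3 ± 6.54 CPM, SD, n = 3 each). The libraries do not overlap, and the log2 fold change was 1.49 (SE 0.31, edgeR adjusted p 0.0168), in a comparison that called 0.82% of all genes. Neu1 was at 39.1, 56.4 and 94.9 CPM in HDAC3 (1.04, adjusted p 0.138), below or within its LSD1 range. Lamp2, the sister protein of Lamp1, was at 258 to 327 CPM in HDAC3 and at 359 to 610 CPM in LSD1, without overlap (0.75, adjusted p 0.163). Ctss, at 0 to 0.881 CPM in HDAC3, differed by 3.54 (adjusted p 0.158), and 28 of 32 members were positive. The members' median was 0.44, and with 1 library left out it was 0.24 to 0.74 (26 to 30 positive). The mast cell marker Hdc was also higher in LSD1 (156 against 6.51 CPM, adjusted p 0.0457), and its part was not tested. Gla was not called without HDAC3 replicate 1 or 2 or LSD1 replicate 2, and leaving out the 5 libraries rich in reads outside genes gave 0 called members. That fit keeps 1 HDAC3 library and 2 LSD1 libraries, and the lone library is assumed to vary like the other groups. Without LSD1 replicate 1, Ctsb and Neu1 were called as well, among 403 of 12176 genes.

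In wild-type cells, 30 min of IL3 raised 1 member, Cd68, a LAMP-family membrane protein named for its use as a macrophage marker. It was at 6.56, 7.77, 5.74, 5.61 and 7.36 CPM in deprived cells and at 20.1, 12.7, 14.999, 10.2 and 14.05 CPM in stimulated cells. The groups did not overlap, and the log2 fold change was 1.13 (SE 0.24, edgeR adjusted p 0.00489), beside 3.82% of all genes called. Under all 18 alternatives it was called, with values between 0.99 and 1.23. In the stimulated hairpin groups Cd68 lay between 7.98 and 24.5 CPM.

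Replicate numbers paired the wild-type libraries, and once that number entered as a block 7 of 31 members tested (22.6%) were called, 1 higher and 6 lower. Of the 11195 genes tested in that fit 22.4% were called, so the members' share is at the background. Dpp7 fell by 0.46 on the log2 scale (adjusted p 0.00845), Slc38a7 by 0.37 (0.0330), Naglu, a glucosaminidase that degrades heparan sulfate, by 0.35 (0.0179), Grn, the progranulin precursor, by 0.31 (0.0252), Dnase2a by 0.31 (0.0498) and Ctsa by 0.23 (0.0408). All 6 were lower in 5 of 5 pairs. Over the 32 members, 17 (53.1%) were lower in every pair, against 23.3% of all genes, and 2 were higher in every pair, Cd68 and Asah1. Without the block, 26 of 32 members were negative, the median was -0.16, and these 6 were not called, with Naglu at an adjusted p of 0.353.

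Other genes of the compartment were read from lists. Of 17 tested subunits of the V-ATPase, the proton pump that acidifies lysosomes, 17 were positive in STAT5A (median 0.38) and 15 in STAT5B (median 0.50), and 0 were called in either, although 12 had an unadjusted p under 0.05 in STAT5B. The summed level of all 18 listed subunits was 1550 to 2145 CPM in no-target, 2196 to 3053 CPM in STAT5A and 2250 to 3346 CPM in STAT5B, without overlap. Against stimulated wild type, at 2159 to 2521 CPM, both knockdowns overlapped. Of 33 further lysosomal hydrolases and cofactors 0 were called in either STAT5 knockdown (25 positive in each, medians 0.20 and 0.22), and of 23 further membrane proteins 0 (14 positive in each). The list of MiT/TFE factors and lysosomal mTORC1 signalling had medians of 0.05 and -0.00, and autophagy genes 0.06 and 0.21, with 0 called.

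In the LSD1 knockdown 1 gene each of 3 lists rose: Slc15a3, a lysosomal peptide and histidine transporter, from 0.548 to 47.5 CPM (adjusted p 0.000157), Scpep1, a serine carboxypeptidase, from 18.6 to 54.2 CPM (0.0328), and the V-ATPase subunit Atp6v0a1 from 76.98 to 180 CPM (0.0309). Against HDAC3 knockdown, Smpd1 (acid sphingomyelinase), Scpep1, Slc15a3 and the autophagy gene Atg12 were higher in LSD1, and Rptor, the mTORC1 scaffold, was lower (-0.65, adjusted p 0.0435). Of all genes, 0.166% were called in LSD1 against no-target and 0.82% in LSD1 against HDAC3. With only the compared groups in the fit these became 0 of 11229 and 0 of 11050 genes, so none of these calls held there. In wild-type cells IL3 lowered Pla2g15, a lysosomal phospholipase, from 44.4 to 23.0 CPM (0.0122). Ddit4, which restrains mTORC1, fell from 85.7 to 26.3 CPM (0.00315). Rraga, a Rag GTPase that brings mTORC1 to lysosomes, rose from 52.8 to 73.7 CPM (0.0143). The wild-type comparison called 3.82% of all genes. All p here are edgeR's, adjusted over all genes.

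The cell labels were checked against marker genes. Of 14 pro-B markers, 12 never reached 1 CPM in any library, among them Pax5 and Ebf1, and Vpreb2 was at 0 reads in all 27, while Cd79a and Cd79b stood at 15.4 to 70.8 CPM. Of 15 macrophage markers 10 stayed under 1 CPM, C1qa and Marco were at 0 reads everywhere, and Emr1 ranged from 15.8 to 622 CPM. Summed macrophage markers were 60.3 to 307 CPM in no-target, 319 to 359 CPM in STAT5A and 35.3 to 418 CPM in STAT5B. Emr1 alone averaged 201, 305 and 197 CPM in these groups, and 4 of the 15 markers passed the filter. Beside the lysosomal values, Lyz2 rose in STAT5B (13.05 against 5.59 CPM, edgeR adjusted p 0.0453) and Cd14 in STAT5A (14.4 against 0.170 CPM, adjusted p 0.0459, with libraries that overlap).

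Summed neutrophil markers were 11.7 to 266 CPM in no-target, 76.0 to 1476 CPM in STAT5A and 180 to 774 CPM in STAT5B, and 1 of their 11 genes stayed under 1 CPM. Summed mast cell and basophil markers were 529 to 1322, 753 to 782 and 596 to 1948 CPM in the same groups, with 3 of 12 genes under 1 CPM. Gata2 and Cma1 made up most of these sums and hid opposite directions. In STAT5A both had lower means than in no-target (474 against 629 and 189 against 228 CPM). Cpa3 (28.1 against 5.01 CPM) and Hdc (64.5 against 16.5 CPM) were higher. Of 9 tested markers 5 were positive and 4 negative in STAT5A, 8 and 1 in STAT5B, with 0 called. T cell markers summed to at most 15.3 CPM and fibroblast markers to at most 4.57 CPM in any library. The part of such markers in the lysosomal differences was not tested.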

How the data were processed

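PolyA RNA libraries of Ba/F3 cells (TruSeq RNA kit) gave 1 file per library of raw read counts per gene symbol, as deposited by the authors. The submitters' processing notes name Trimmomatic 0.30, TopHat2 2.0.10, HTSeq 0.5.4p5, DESeq2 1.2 and mm10. The order of steps, counting mode, strand setting and annotation are not given in the sources used here. The 5 summary rows that name no gene entered neither library sizes nor tests. The share of reads outside genes (8.70 to 24.9%) comes from 1 of these rows. It is relative to the sum of counted reads, reads outside genes and ambiguous reads.

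All 27 libraries entered 1 edgeR quasi-likelihood fit (edgeR 4.0.16, R 4.3.3, limma 3.58.1; a mean per group, robust, TMM, filterByExpr), with Benjamini-Hochberg adjustment over 12073 genes and a threshold of 0.05. Heat map values are log2(CPM + 0.5). p-values rest on the spread between libraries within groups, estimated jointly over all 7 groups, so that libraries outside a comparison also enter it. Promoters and motifs were matched by symbol to RefSeq (GRCm38.p6), and exon lengths and overlaps were taken from GENCODE vM21 (GRCm38). Alternatives were DESeq2 1.42.0, other scaling and filter, a term for or omission of the 5 libraries with over 13% of reads outside genes, only the compared groups, a replicate block, and each library left out. A further 2 were chosen after seeing the data: stimulated wild type as controls, and omission of 4 libraries with under 0.195 multi-mapped reads per counted read. The comparisons of each STAT5 knockdown with wild type were also added then.

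The members, lists and tests were chosen with earlier results of these data known. Named with values per library are members called in the STAT5 and wild-type comparisons and the 4 with the smallest adjusted p elsewhere. Up to 4 called genes per list are named, and further members as examples after their values were seen. Equal replicate numbers paired the wild-type libraries: deviations from group means correlated in 5 of 5 pairs (r 0.406 to 0.747). No libraries of a group were copies (chi-square per degree of freedom 10.0 to 160 over 42 pairs). On simulated data with 200 changed genes among 11867, the STAT5B comparison recovered 63% of 2-fold and 91% of 4-fold changes, and 3.75% of its calls were false. The simulated counts varied independently, without shifts of whole libraries such as STAT5B replicate 3 showed. These rates therefore do not measure how reliable the calls in the real data are.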

Additional observations from a re-analysis of the deposited data

Results flagged for a closer look

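In groups of 5 libraries, 10 of 99 checks of a gene's or the summed level found 1 library far from the rest. For a single check chance gives about 1 in 20, but the checks share libraries and are not independent. Of the 10, 7 fall on replicate 3 of wild type, deprived or stimulated. Over all genes, deprived replicate 3 was the highest of 27 libraries for 18.2% and the lowest for 16.0%. For stimulated replicate 3 these shares were 0.265 and 0.364%. In deprived replicate 3, Lamp1 was low at 373 CPM (599 to 621 in the others), Asah1 low at 20.3 CPM (51.6 to 64.0), Slc38a7 low at 18.1 CPM (25.4 to 27.7) and Laptm5 high at 528 CPM (346 to 380). In stimulated replicate 3, Lamp1 was low at 399 CPM (563 to 594), Dnase2a low at 51.9 CPM (70.3 to 77.6), and the summed level of the 34 genes low at 5002 CPM (5548 to 5717). The other 3 were Ctsa, low at 207 CPM in deprived replicate 1, Naglu, high at 68.7 CPM in deprived replicate 5, and Tpp1, low at 140 CPM in no-target replicate 1, 1 of the 5 libraries rich in reads outside genes.

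The LSD1 and HDAC3 knockdown effects on Gla differed by a test of the difference itself, 1.49 on the log2 scale (edgeR adjusted p 0.0168).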

How the results depend on the processing

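Members called in STAT5B knockdown against no-target were 4 in the report. They numbered 6 with DESeq2 (adding Ctsa and Mcoln1, among 148 of 12977 genes called) and 2 without the filter (18 of 20571 genes). The count was 0 with a term marking the 5 libraries rich in reads outside genes or without those libraries. It was also 0 with only the compared groups, with a replicate block, or with wild-type controls. Leaving out 1 library gave 0 to 8, while 5 to 171 of all genes were called. For the mean of both STAT5 knockdowns the count of 0 became 5 with DESeq2 (215 of 12977 genes), and 0 to 3 with 1 library left out (2 to 74 genes). Gla was the 1 member called for that mean against wild type, and for STAT5B against wild type, with DESeq2, the term, or without the 5 libraries. LSD1 against HDAC3 (1) gave 0 without the 5 libraries (which leaves 1 HDAC3 library), with only the compared groups or with the block, and 0 to 3 with 1 library left out. The wild-type pair (1) gave 3 with only its groups (1170 of 11195 genes called) and 7 with the replicate block (2504 of 11195). It stayed at 1 to 1 with 1 library left out. No-target against wild type gave 1 with only its groups (26 of 11177 genes called). Every other comparison stayed at 0 to 0 with 1 library left out.

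Among members named with full statistics, signs turned for Dnase2a in STAT5A with wild-type controls (-0.17), Dnase2a between STAT5A and STAT5B without STAT5B replicate 3 (0.030, in a range of -1.12 to 0.030 with 1 library left out) and Laptm5 in HDAC3 without HDAC3 replicate 3 (-0.012, in a range of -0.012 to 0.66), none of them called. Over all 32 members, leaving out the 5 libraries turned the sign of 6 in STAT5A, 4 in STAT5B, 16 in HDAC3 (1 library left), 1 in LSD1 and 9 in no-target against wild type, 0 of them called. The causes were not tested, beyond fewer libraries or genes entering those fits. Outside wild type the numbers did not pair the libraries: same-numbered pairs correlated over 0.1 in 0 of 3 for either STAT5 knockdown against no-target, 0 of 5 for no-target against wild type and at most 2 of 3 elsewhere, and the block changed no call but those given. With 3 libraries a group, 2-fold changes were often missed in simulated data (recovered 50 to 63%).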
